A study of Mus musculus with 14 samples.

Results

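The Bcl2 family genes that set cell survival and death were followed through myoblast differentiation, with and without knockdown of the transcription factor Klf5. The 10 genes were chosen by symbol: the antiapoptotic genes Bcl2, Bcl2l1 and Mcl1, the effector genes Bax and Bak1, and the BH3-only genes Bid, Bad, Bbc3, Pmaip1 and Bcl2l11. All 10 were found in the expression table, which holds 24016 transcripts with 1 transcript per gene, and all 10 passed the filter that kept 14312 of them (mean FPKM of at least 1 over the libraries), called expressed here. The RNA, selected for poly(A) tails, came from the mouse myoblast line C2C12, whose cells fuse to myotubes once growth medium is replaced by differentiation medium with horse serum. The cells received control siRNA (siCtrl) or a pool of siRNAs against Klf5 (siKlf5), and were collected on days 0, 1, 2 and 3 of differentiation. Each of the 8 combinations of siRNA and day was sequenced once, so none has a replicate. The cells were of 1 established line, and what was measured is RNA and not cell death. Values are FPKM as the authors deposited them, that is, reads per kilobase of exon with the libraries scaled to a common total of 10000000, and are therefore larger than FPKM in its usual definition. The ChIP-seq part of the study was not analysed here.

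Proteins of the Bcl2 family decide whether mitochondria release cytochrome c, which starts the caspase cascade. Bax and Bak1 form the pores in the outer membrane, Bcl2, Bcl-xL (the long product of Bcl2l1) and Mcl1 hold them in check, and the BH3-only proteins Bid, Bad, Puma (Bbc3), Noxa (Pmaip1) and Bim (Bcl2l11) bind these guardians or activate the effectors. In differentiating myoblasts some cells die while others leave the cell cycle and fuse, and caspases also act in the cells that survive.

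What these proteins share is the BH3 domain, the helix through which they bind each other. Its core was searched for in the GENCODE coding sequences on mm9 as codons for leucine, then 3 codons for any residue, then glycine, alanine or serine, then aspartate. Each of the 9 members searched (all but Pmaip1) held this pattern exactly once, whereas 32.7% of 21819 coding genes held it at least once, so that the pattern alone does not mark a BH3 domain. The 42 bases around it are given for these members, 5′ to 3′ on the coding strand, with the 18 bases of the core in capitals.
Bcl2: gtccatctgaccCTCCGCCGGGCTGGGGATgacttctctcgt
Bcl2l1: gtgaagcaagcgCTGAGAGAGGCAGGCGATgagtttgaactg
Mcl1: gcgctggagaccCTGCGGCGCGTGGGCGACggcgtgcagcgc
Bax: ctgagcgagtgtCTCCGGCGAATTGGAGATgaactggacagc
Bak1: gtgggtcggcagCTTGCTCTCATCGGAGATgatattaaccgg
Bid: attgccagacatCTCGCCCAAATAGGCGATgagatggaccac
Bad: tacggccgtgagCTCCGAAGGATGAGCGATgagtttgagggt
Bbc3: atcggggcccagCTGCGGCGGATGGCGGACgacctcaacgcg
Bcl2l11: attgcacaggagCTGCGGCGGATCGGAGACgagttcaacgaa
The fifth residue of the core was serine in Bad and alanine in Bbc3, and glycine in the other members shown. Of the 18 core bases, Bax had 13 and Bak1 had 8 in common with Bcl2.

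Recovered depth was between 7850497 reads (siCtrl, day 1) and 20301506 reads (siCtrl, day 2). Klf5 was lower in the siKlf5 library on every day, with 223.8, 381.1, 614.4 and 933.1 FPKM in siCtrl cells on days 0 to 3 and 35.1, 159.6, 192.1 and 211.4 FPKM in siKlf5 cells. Myog, the transcription factor that marks differentiating myoblasts, rose by 2.17 on the log2 scale from day 0 to day 3, averaged over both siRNAs (adjusted p = 3.07e-05, limma). All 5 muscle lineage markers examined were expressed, with a summed level between 2269 and 7850 FPKM. Markers of leukocytes summed to at most 24.2 FPKM (Ptprc at most 0.71, the rest Cd68, with Adgre1 not found by its symbol), of epithelia to at most 38.1 FPKM (all Cdh1, with Epcam at 0), of endothelium to at most 1.04 FPKM and of adipocytes to at most 3.81 FPKM.

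Levels were compared between members per length of transcript. Bax was the most abundant member, with 541.1 to 1206 FPKM over the 8 libraries, and its lowest value was above the highest value of any other member. Its mean of 753.6 FPKM stood at the 96.2 percentile of expressed transcripts. Next came Mcl1 (286.7 to 390.9 FPKM), Pmaip1 (122.9 to 378.0 FPKM), Bad (190.9 to 287.1 FPKM), Bak1 (181.5 to 341.6 FPKM), Bid (180.1 to 275.9 FPKM) and Bcl2l1 (157.7 to 245.3 FPKM), each of whose ranges overlapped that of its neighbour in this order. Bbc3 was lower, with 54.0 to 134.7 FPKM, and of the other members overlapped only Pmaip1, whose siKlf5 library of day 0 was at 122.9 FPKM. Bcl2l11 (29.8 to 45.6 FPKM) and Bcl2 (15.3 to 41.1 FPKM) were lowest, with overlapping ranges. Bcl2 itself, at the 29.6 percentile of expressed transcripts, was thus the least abundant antiapoptotic member, and Mcl1 the most abundant. The counted Bcl2 transcript (NM_177410, 2515 bases) holds of the 2 GENCODE exons only the first in the longest Bcl2 model, chr1:108608882-108610851 on the minus strand of mm9, which makes up 1970 of the 2518 bases of its span, so reads from the other exon (chr1:108434755-108439975, 5221 bases) did not enter its value. Its value rested on 72 to 185 reads per library, against 865 to 1857 for Bax and 1467 to 4526 for Mcl1.

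**Figure D1:**
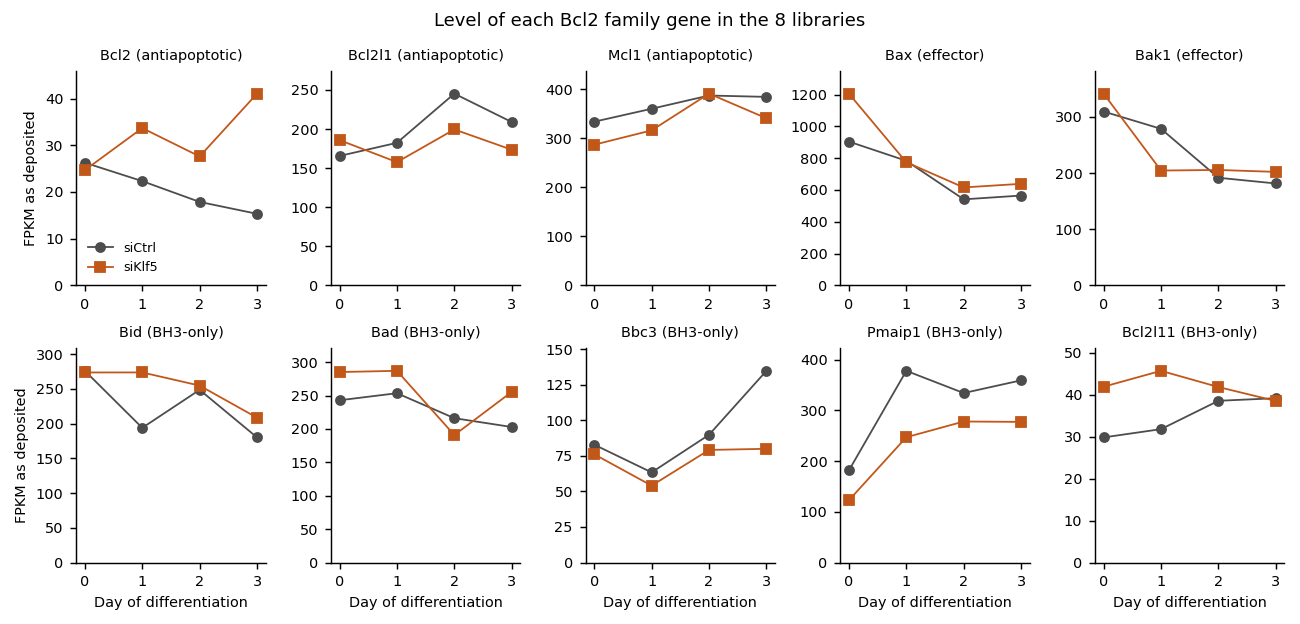
Level of each of the 10 Bcl2 family genes (FPKM as deposited, vertical axes from 0 with a scale of their own) against the day of differentiation, 1 point per library, grey circles for siCtrl and orange squares for siKlf5. Bax and Bak1 lie lower on days 2 and 3 than on day 0 with both siRNAs, and Pmaip1 lies higher. Bcl2 is at 15.3 FPKM in siCtrl and 41.1 FPKM in siKlf5 on day 3.

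The first comparison asked how the members changed as the cells differentiated. Each later day was compared with day 0, averaged over both siRNAs, in a limma fit with siRNA and day as factors, so that the 2 libraries of a day serve as its replicates and any difference of the course between the siRNAs counts as error. 1 member (Pmaip1) was higher and 1 (Bax) lower on day 1, 1 (Pmaip1) higher and 2 (Bax, Bak1) lower on day 2, and 1 (Pmaip1) higher and 3 (Bax, Bak1, Bid) lower on day 3. Of all expressed transcripts, 6.82% were higher and 9.93% lower on day 1, 11.5% higher and 11.6% lower on day 2, and 12.8% higher and 17.6% lower on day 3. The median difference over the 10 members on day 3 was 0.05 on the log2 scale and that over all expressed transcripts was -0.09. Scaling by median ratios instead moved the latter to 0.01 and turned 1831 higher and 2516 lower transcripts into 2173 and 1828. On day 1, upper-quartile scaling moved the median of all transcripts from -0.09 to 0.03 and the split from 976 higher and 1421 lower to 1294 and 895. Pmaip1, Bax, Bak1 and Bid kept their signs under both scalings on each of the 3 days.

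Among the effectors, both pore-forming genes fell. Bax (NM_007527, chr7:52717065-52722268, minus strand) had 904.4, 783.5, 541.1 and 564.9 FPKM in siCtrl cells on days 0 to 3, and 1206, 774.2, 616.0 and 638.7 FPKM in siKlf5 cells. Each later library was below the day 0 library of the same siRNA. Averaged over both siRNAs, Bax was 1.81-fold lower on day 2 (log2 difference -0.86, SE 0.12, adjusted p = 0.00231) and 1.74-fold lower on day 3 (log2 difference -0.80, SE 0.12, adjusted p = 0.00212). The fall on day 1 was smaller (log2 difference -0.42, adjusted p = 0.0494) and lost its call under both scalings, with adjusted p = 0.201 for upper-quartile scaling and 0.180 for median-ratio scaling, and also without day 2 (0.122) or day 3 (0.132), without the intensity trend (0.172), without the filter on low values (0.203) and with the deposited log2 columns (0.239). The day 2 call was lost without the filter (adjusted p = 0.0537).

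Bak1 (NM_007523, chr17:27156757-27165571, minus strand) had 309.7, 278.9, 191.7 and 181.5 FPKM in siCtrl cells and 341.6, 204.6, 205.6 and 202.2 FPKM in siKlf5 cells. The 4 libraries of days 2 and 3 all lay below both day 0 libraries, and the siKlf5 library had reached this level on day 1. Averaged over both siRNAs, Bak1 was 1.64-fold lower on day 2 (log2 difference -0.71, SE 0.16, adjusted p = 0.0175) and 1.70-fold lower on day 3 (log2 difference -0.76, SE 0.16, adjusted p = 0.00982). Each call was lost in 3 of 10 alternatives. The adjusted p for day 2 was 0.0688 without day 3, 0.103 without the intensity trend and 0.159 without the filter on low values, and that for day 3 was 0.0538 without day 2, 0.0726 without the trend and 0.116 without the filter. Exon bases of Ggnbp1, on the opposite strand, lie within the genomic span of Bak1, and reads of both strands were counted. Whether they fall in exons of Bak1 was not tested. Ggnbp1 was at 2.21 to 15.1 FPKM.

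Pmaip1 encodes Noxa, which binds Mcl1 and promotes its breakdown, and was the member with the largest difference from day 0 on each later day. It had 181.7, 378.0, 334.2 and 359.3 FPKM in siCtrl cells (NM_021451) and 122.9, 247.1, 278.1 and 277.4 FPKM in siKlf5 cells. With each siRNA the step was already present on day 1, and all 6 libraries of the later days were above both day 0 libraries. Averaged over both siRNAs, Pmaip1 was 2.04-fold higher on day 1 (log2 difference 1.03, SE 0.12, adjusted p = 0.00167) and 2.11-fold higher on day 3 (log2 difference 1.08, SE 0.12, adjusted p = 0.000565). The call held in all 10 alternatives tried on each of the 3 days.

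Bid, which carries the signal of death receptors to mitochondria after caspase 8 cuts it, had 275.9, 193.8, 248.5 and 180.1 FPKM in siCtrl cells and 273.5, 273.6, 254.6 and 208.4 FPKM in siKlf5 cells (NM_007544, chr6:120843137-120866838, minus strand). The 2 day 3 libraries were below both day 0 libraries, and on day 1 the siRNAs differed. Bid was 1.42-fold lower on day 3 (log2 difference -0.50, SE 0.14, adjusted p = 0.0315). This call was lost in 5 of 10 alternatives: under upper-quartile scaling (adjusted p = 0.0643), under median-ratio scaling (0.0624), without day 2 (0.0818), without the intensity trend (0.118) and without the filter on low values (0.164).

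The other BH3-only genes did not pass the test on any day. Bad, whose product is held inactive by survival signalling through Akt, had 243.0, 253.6, 216.2 and 203.0 FPKM in siCtrl cells and 285.3, 287.1, 190.9 and 255.6 FPKM in siKlf5 cells. Its lowest adjusted p was 0.0951, on day 2 (log2 difference -0.37). Bbc3, which encodes the p53 target Puma, had 82.8, 63.3, 89.8 and 134.7 FPKM in siCtrl cells and 76.1, 54.0, 79.1 and 79.9 FPKM in siKlf5 cells. The siCtrl library of day 3 was the highest and the day 1 libraries were the lowest, and the difference of day 3 from day 0 was 0.39 on the log2 scale (95% interval -0.07 to 0.85, adjusted p = 0.185). Bcl2l11, which encodes Bim, had 29.8, 31.8, 38.5 and 39.1 FPKM in siCtrl cells and 41.9, 45.6, 41.8 and 38.5 FPKM in siKlf5 cells, with a difference of 0.14 on day 3 (95% interval -0.47 to 0.74).

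Among the antiapoptotic genes none passed the test. Mcl1, whose protein turns over fast, had 333.6, 360.0, 387.0 and 384.3 FPKM in siCtrl cells and 286.7, 316.0, 390.9 and 340.7 FPKM in siKlf5 cells (NM_008562, chr3:95462643-95467101, plus strand). Every later library was above the day 0 library of its siRNA, and the difference was 0.33 on the log2 scale on day 2 (95% interval 0.09 to 0.58, adjusted p = 0.0587) and 0.23 on day 3 (adjusted p = 0.147). Bcl2l1 had 165.6, 182.4, 245.3 and 209.0 FPKM in siCtrl cells and 185.9, 157.7, 199.5 and 173.5 FPKM in siKlf5 cells, with a difference of 0.33 on day 2 (adjusted p = 0.136). Its 2 protein forms, one of which promotes death, cannot be separated in a value per gene. Bcl2 had 26.3, 22.3, 17.9 and 15.3 FPKM in siCtrl cells and 24.7, 33.7, 27.6 and 41.1 FPKM in siKlf5 cells. Its average over both siRNAs on day 3 differed from day 0 by -0.02 on the log2 scale (SE 0.40), the widest error of the 10 members. Day 3 lay below day 0 in siCtrl cells (log2 ratio -0.77, 95% interval from read counts -1.89 to 0.28). In siKlf5 cells it lay above (0.73, -0.14 to 1.65), and both intervals included 0. What widened the error was not tested.

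**Figure D2:**
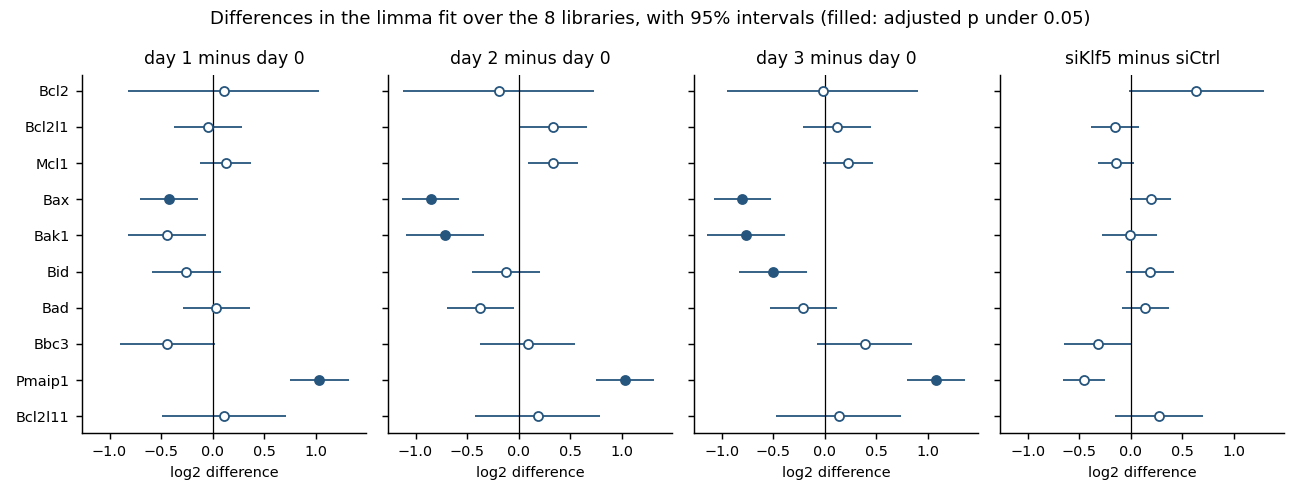
Log2 differences of the 10 genes in the limma fit over 8 libraries (horizontal axes), with 95% intervals as bars, for days 1, 2 and 3 against day 0 and for siKlf5 against siCtrl, and filled points for an adjusted p under 0.05. Filled points lie below 0 for Bax, Bak1 and Bid and above 0 for Pmaip1, and no point is filled in the siRNA panel.

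The sum of the classes shifted with these changes. The summed level of Bax and Bak1 in siCtrl cells was 1214, 1062, 732.8 and 746.4 FPKM on days 0 to 3, and in siKlf5 cells 1548, 978.7, 821.6 and 840.9 FPKM. The summed level of Bcl2, Bcl2l1 and Mcl1 was 525.5, 564.8, 650.2 and 608.6 FPKM in siCtrl cells, and 497.3, 507.3, 618.0 and 555.3 FPKM in siKlf5 cells. The ratio of the effector sum to the antiapoptotic sum was therefore 2.31 on day 0 and 1.23 on day 3 in siCtrl cells, and 3.11 and 1.51 in siKlf5 cells. In both courses the lowest ratio was that of day 2 (1.13 and 1.33), and on each day the siKlf5 library had the higher ratio. The sums are descriptions without a test, Mcl1 made up most of the antiapoptotic sum, and Bax most of the effector sum. They cover the 10 members only and leave out the antiapoptotic gene Bcl2l2. Bcl2l2 had 166.5 FPKM on day 0 and 270.1 FPKM on day 3 in siCtrl cells, and 146.6 and 253.5 FPKM in siKlf5 cells. With it the ratios would be lower. The 5 BH3-only genes summed to 799.6 to 927.2 FPKM and made up 28.1% to 40.3% of the total of the 10 genes.

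**Figure D3:**
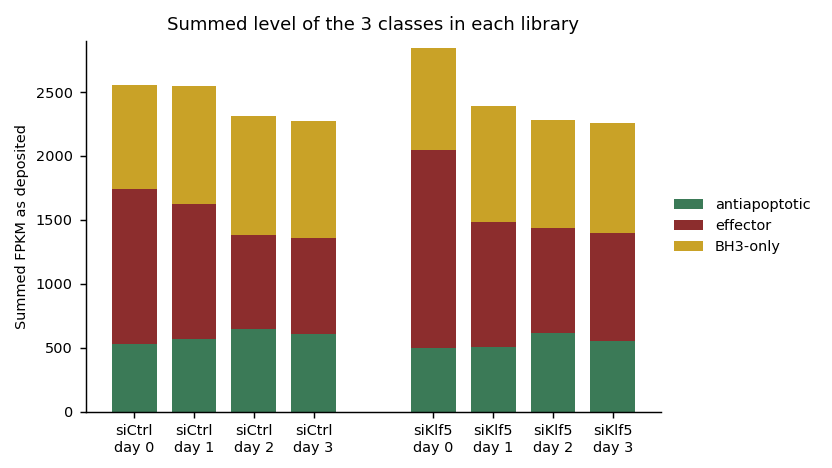
Summed FPKM (vertical axis, from 0) of the antiapoptotic, effector and BH3-only members in each of the 8 libraries, stacked, with siCtrl on the left and siKlf5 on the right. The effector part is smaller on days 2 and 3 (732.8 to 840.9 FPKM) than on day 0 (1214 and 1548 FPKM).

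The second comparison asked how the members depended on Klf5. With 1 library per siRNA and day it was first made day by day, as log2((siKlf5 + 0.1)/(siCtrl + 0.1)) with a 95% exact binomial (Clopper-Pearson) interval on the reads divided by 6, which covers counting error only. A difference past 1.5-fold is counted here without a test. On day 0 no member was past 1.5-fold, against 11.1% of expressed transcripts lower and 9.22% higher in the siKlf5 library. On day 1, 1 member (Pmaip1) was lower and 1 (Bcl2) higher, against 11% lower and 16.4% higher among all. On day 2, 1 member (Bcl2) was higher and none lower, against 7.69% higher and 13% lower, and on day 3, 1 (Bcl2) was higher and 1 (Bbc3) lower, against 10.7% higher and 12.5% lower. Low transcripts made up a large part of this background. When the filter was raised to a mean FPKM of 20, which left 10537 transcripts, a value chosen after seeing the data, 4.68% were higher and 5.87% lower on day 3.

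Bcl2 was the only member past 1.5-fold on more than 1 day, on days 2 and 3 and, less firmly, on day 1, where a pseudocount of 0.5 or 1 or either other scaling brought it under 1.5-fold. The siKlf5 library was 1.51-fold above siCtrl on day 1 (log2 ratio 0.59, 95% interval -0.53 to 1.77), 1.54-fold on day 2 (0.62, -0.26 to 1.51) and 2.67-fold on day 3 (1.42, 0.45 to 2.48), while on day 0 it was 1.06-fold below (-0.09, -1.07 to 0.87). Only on day 3 did the counting interval leave out 0, with 185 reads in the siKlf5 library and 79 in the siCtrl library. In siCtrl cells the 3 later days lay below day 0, and in siKlf5 cells above it. The difference between the siRNAs in the slope over the days was 0.46 per day on the log2 scale (95% interval -0.02 to 0.93, unadjusted p = 0.0589 and adjusted p = 1.00 in limma). This test was added after seeing the data, and it called no transcript (0% of 14312, with 316 at an unadjusted p under 0.05).

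Pmaip1 was lower in the siKlf5 library on all 4 days, by 1.48-fold on day 0 (log2 ratio -0.56, 95% interval -0.94 to -0.19), 1.53-fold on day 1 (-0.61, -0.93 to -0.30), 1.20-fold on day 2 (-0.27, -0.49 to -0.04) and 1.30-fold on day 3 (-0.37, -0.63 to -0.12). The intervals left out 0 on each day, which held for no other member. How often this held among all expressed transcripts was not computed. Bbc3 was also lower on all 4 days, with an interval that left out 0 only on day 3 (1.68-fold, log2 ratio -0.75, -1.29 to -0.23). Of the other members, Bax was 1.33-fold higher on day 0 (0.42, 0.17 to 0.66), Bid 1.41-fold higher (0.50, 0.07 to 0.93) and Bak1 1.36-fold lower (-0.45, -0.86 to -0.04) on day 1, and Bcl2l1 1.23-fold lower on day 2 (-0.30, -0.58 to -0.02). None of these 4 had an interval that left out 0 on a second day. Mcl1 differed by at most 1.16-fold on any day.

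**Figure D4:**
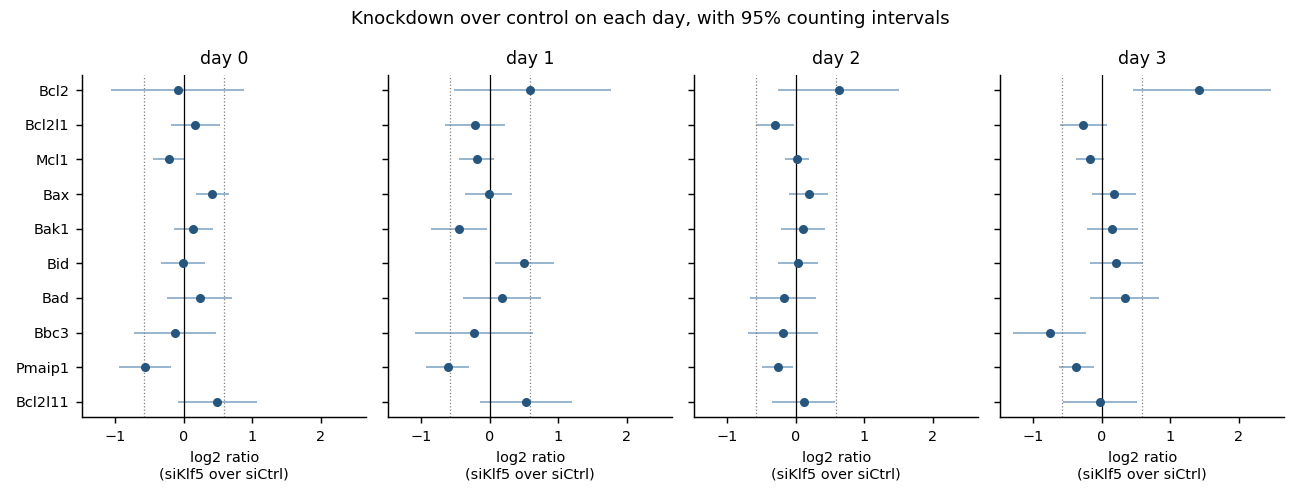
Log2 ratio of the siKlf5 to the siCtrl library for each of the 10 genes (horizontal axes) on days 0, 1, 2 and 3, with 95% counting intervals as bars and dotted lines at 1.5-fold. Pmaip1 lies left of 0 in each panel, and Bcl2 on day 3 is the only point past 2-fold, at 1.42.

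Averaged over the 4 days in the same limma fit, no member passed the test for the siRNA, and 1 of 10 (Pmaip1) had an unadjusted p under 0.05. Over all expressed transcripts 9 were called (0.0629%), among them Klf5 (log2 difference -1.94, SE 0.20, adjusted p = 0.0244), and 1374 had an unadjusted p under 0.05. The difference for Pmaip1 was -0.45 (SE 0.09, 95% interval -0.65 to -0.25, unadjusted p = 0.000827, adjusted p = 0.178), lower in siKlf5 on 4 of 4 days. Those for Bcl2 and Bbc3 were 0.64 (95% interval -0.02 to 1.29, adjusted p = 0.528) and -0.32 (-0.65 to 0.00, adjusted p = 0.524). For Mcl1 and Bcl2l1 the intervals were -0.31 to 0.03 and -0.39 to 0.08, so differences of these sizes were within the error of the fit. Myog was also lower in siKlf5 on 4 of 4 days, by a log2 difference of -0.46 (adjusted p = 0.228), and its part in the differences of the members was not tested.

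The bases before the counted start were read from mm9 and are shown for Bax and Bcl2. Bax was the most abundant member. Bcl2 was the only member past 1.5-fold between the siRNAs on more than 1 day, without passing a test. The 250 bases of each are given 5′ to 3′ on the strand of the gene, with capitals for GGGCGG on either strand (the GC box bound by Sp1 and Klf family factors) and CANNTG (the E-box bound by MyoD and Myog).
Bax, chr7:52722269-52722518, minus strand: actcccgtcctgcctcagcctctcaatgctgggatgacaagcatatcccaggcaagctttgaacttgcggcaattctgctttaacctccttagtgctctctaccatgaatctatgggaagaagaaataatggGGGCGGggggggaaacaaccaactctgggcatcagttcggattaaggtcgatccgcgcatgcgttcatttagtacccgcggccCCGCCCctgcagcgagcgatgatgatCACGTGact
Bcl2, chr1:108610868-108611117, minus strand: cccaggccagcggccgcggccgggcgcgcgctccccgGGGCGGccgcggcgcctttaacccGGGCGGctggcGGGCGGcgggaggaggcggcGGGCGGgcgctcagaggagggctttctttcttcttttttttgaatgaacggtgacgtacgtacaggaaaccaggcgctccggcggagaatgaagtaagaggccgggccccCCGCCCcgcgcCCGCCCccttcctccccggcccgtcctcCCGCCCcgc
The Bcl2 window held 7 matches to GGGCGG and no match to CANNTG, and the Bax window held 2 and 1. G and C made up 74.8% of the Bcl2 window and 54.0% of the Bax window, against a median of 55.2% over all windows. The Bbc3 window (76.4%) held 5 matches to GGGCGG, those of Bid and Bcl2l11 3 each, of Pmaip1 2, of Mcl1 1, and of Bcl2l1, Bak1 and Bad 0. Bbc3 was lower in siKlf5 on every day. Whether the matches relate to the siRNA differences was not tested. At least 1 GGGCGG was in the window of 7 of the 10 members and of 41.6% of 23950 transcripts with a window, and CANNTG in that of 5 members and of 62.9% of transcripts. 6 or more GGGCGG were in 1.43% of all windows. A match is a description of the letters and not a bound site.

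The wider death pathway was taken from 8 lists that hold 80 genes beside the members, of which 68 were expressed. The other 12, among them Bcl2a1a to Bcl2a1d, Hrk, Fasl and Trp73, had a mean under 1. On day 3, 14 of the 68 were higher than on day 0 (20.6%) and 14 lower (20.6%), against 12.8% and 17.6% of all expressed transcripts. The median log2 difference was -0.22, against -0.09 for all. None of the 68 was called for the siRNA, against 9 of 14312 expressed transcripts. An unadjusted p under 0.05 in limma was found for 8 of the 68, against 1374 of the 14312.

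The 15 genes of the apoptosome and caspase list were all expressed, and on day 3, 6 were lower, none higher and 9 not called (17.6% lower and 12.8% higher among all). Among the lower genes were Casp8, the initiator caspase of death receptors (2.43-fold, adjusted p = 0.0034), Apaf1, the scaffold of the apoptosome (1.75-fold, adjusted p = 0.0383), and cytochrome c (Cycs, 1.63-fold, adjusted p = 0.00571). Aifm1 and Htra2, further proteins of the space between the mitochondrial membranes, were 1.36-fold and 1.31-fold lower, and Htra2 had the highest mean of this list, with 376.3 FPKM.

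Of 9 expressed death receptor genes, 1 was higher (Traf2) and 2 lower on day 3 (12.8% higher and 17.6% lower among all). Ripk3, the kinase of necroptosis, was among the largest falls of all lists, with 94.5, 70.4, 47.2 and 45.9 FPKM in siCtrl cells and 96.8, 53.3, 44.8 and 29.2 FPKM in siKlf5 cells (2.61-fold lower on day 3, adjusted p = 0.00328). Ripk1, its partner, was 1.59-fold lower (adjusted p = 0.0321), and Tnfrsf1a, the most abundant gene of this list (351.2 FPKM), had an adjusted p of 0.243. Of 4 expressed inhibitor of apoptosis genes, only Birc5 was called on day 3, as lower (17.6% lower among all). It had 566.2, 188.9, 254.8 and 151.0 FPKM in siCtrl cells and 639.7, 319.8, 239.1 and 172.2 FPKM in siKlf5 cells (3.73-fold lower on day 3, adjusted p = 0.000267). Birc5 encodes survivin, which also serves in cell division. Of the 3 mitochondrial channel genes 1 was lower on day 3 (Vdac3, with 17.6% lower among all), and Vdac1, the highest at 1160 FPKM, was not called (adjusted p = 0.0637).

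Within the family, Bcl2l2, which encodes the antiapoptotic Bcl-w, was the only other antiapoptotic gene expressed of 6 listed. It had 166.5, 143.8, 216.6 and 270.1 FPKM in siCtrl cells and 146.6, 199.9, 239.6 and 253.5 FPKM in siKlf5 cells, and was 1.67-fold higher on day 3 (adjusted p = 0.0121). Of 8 expressed genes of the effector-like and BH3-only list 1 was higher and 1 lower (Bok, 1.39-fold) on day 3, against 12.8% higher and 17.6% lower among all. The higher one was Bmf, a BH3-only gene whose product is tied to the cytoskeleton, with 1.32, 5.90, 27.7 and 35.0 FPKM in siCtrl cells and 3.14, 13.3, 30.1 and 29.2 FPKM in siKlf5 cells. All 4 libraries of days 2 and 3 were above the 4 of days 0 and 1, and the log2 difference on day 3 was 3.90 (95% interval 2.63 to 5.17, adjusted p = 0.00151). Bnip3, the most abundant of this list with a mean of 317.9 FPKM, was not called (adjusted p = 0.594).

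Among 16 expressed genes of p53 and its targets, without the members Bax, Bbc3 and Pmaip1, 6 were higher and 2 lower on day 3 (12.8% and 17.6% among all). Trp53 itself was 1.48-fold lower (adjusted p = 0.00519), and Sesn2, a stress-induced inhibitor of mTORC1 signalling, had 128.1, 43.7, 29.6 and 34.1 FPKM in siCtrl cells and 147.7, 34.0, 45.3 and 36.8 FPKM in siKlf5 cells (3.87-fold lower, adjusted p = 0.00122). Cdkn1a, the cell cycle inhibitor p21 and the most abundant of this list, was 2.92-fold higher (adjusted p = 0.000513). Eda2r, a receptor of the tumour necrosis factor family, had 51.0, 160.0, 221.0 and 275.8 FPKM in siCtrl cells and 50.4, 110.7, 142.7 and 198.2 FPKM in siKlf5 cells (4.60-fold higher, adjusted p = 8.75e-05). Trp63, a p53 relative, had 2.37, 8.63, 114.1 and 166.5 FPKM in siCtrl cells and 0.65, 9.61, 24.9 and 69.6 FPKM in siKlf5 cells, with a log2 difference of 6.31 on day 3 (95% interval 4.97 to 7.64, adjusted p = 0.000197). The genes of this list thus went both ways, as did its 3 members among the 10: Pmaip1 rose, Bax fell and Bbc3 was not called.

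Among the 14 regulators of Bim, Puma, Noxa, Bad and Mcl1, 5 were higher, 1 lower and 8 not called on day 3 (12.8% higher and 17.6% lower among all). Foxo3, a transcription factor of Bim and Puma, was 1.84-fold higher (adjusted p = 0.00352), Akt2, a kinase that acts on Bad and on Foxo3, was 1.93-fold higher (adjusted p = 0.000498), and Fbxw7, part of a ubiquitin ligase of Mcl1, was 1.60-fold higher (adjusted p = 0.0458). Ddit3, the stress factor Chop, was 1.78-fold lower (adjusted p = 0.00326). Ywhaz, a 14-3-3 protein that binds phosphorylated Bad, was the most abundant of these (1741 FPKM) and was not called (adjusted p = 0.225).

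**Figure D5:**
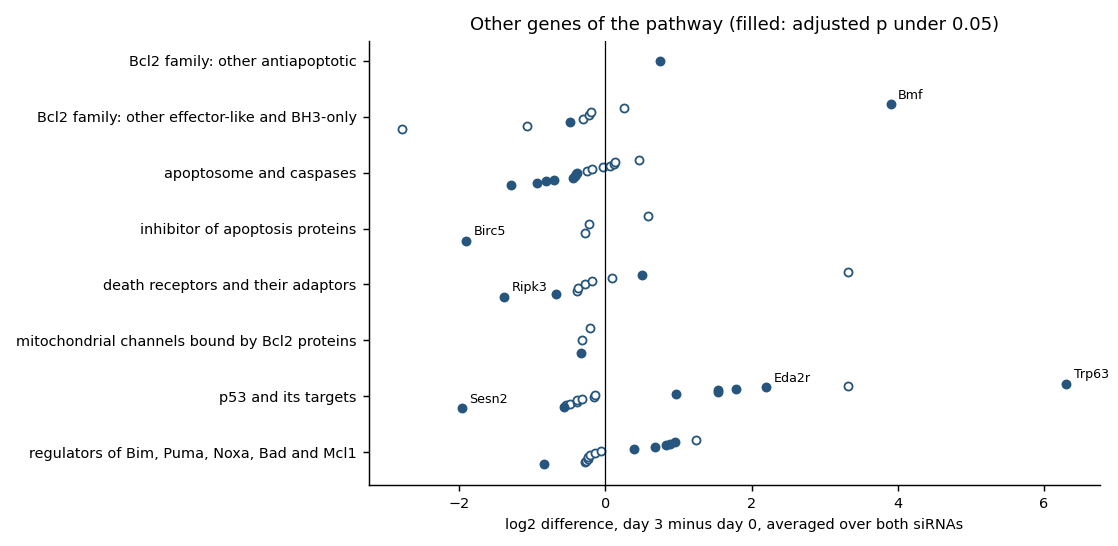
Log2 difference of day 3 from day 0, averaged over both siRNAs (horizontal axis), for the 68 expressed genes of the 8 other lists, 1 point per gene and list, filled for an adjusted p under 0.05. The 3 largest called differences in each direction carry names: Sesn2, Birc5 and Ripk3 on the left, and Eda2r, Bmf and Trp63 on the right.

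The transcripts with the courses most like those of the 3 members of widest range were found by the root mean square difference of centred log2 values over the 8 libraries, among 11591 transcripts whose mean FPKM was 10 or more. For Pmaip1 these were Nptx1 (0.13), Gadd45b (0.13) and Pkia (0.16). Those of Bbc3 were Grasp (0.07), Ddt (0.13) and Adamtsl5 (0.14), and those of Bcl2 were Ppp2r2b (0.21), Hoxc12 (0.21) and Nabp1 (0.21), which lay farther from it. The points share libraries and depth, and no test was made of these distances.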

How the data were processed

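Poly(A) RNA of 8 C2C12 libraries was analysed. The authors aligned paired-end reads to mm9 with STAR and used HOMER to count them on RefSeq exons. Strand was ignored, a position could add no more than 3 reads, and a gene was represented by 1 transcript. They deposited FPKM values scaled to a matrix total of 10000000 and log2 columns, of which 7 were used in 1 alternative only and 1 without a day in its name was not used. Every value checked came within 0.1 of whole reads. Transcripts with 6 reads outnumbered those with 5 by 2.83 to 10.0 times, so intervals used reads divided by 6.

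log2(FPKM + 0.1) of transcripts with a mean of at least 1 was fitted in limma 3.58.1 (R 4.3.3) with siRNA and day as factors and an intensity trend (3 residual and 4.91 prior degrees of freedom). p-values were adjusted by Benjamini-Hochberg over 14312 transcripts at a threshold of 0.05. Since the labels name no separate cultures, p-values measure only the spread between these libraries. Fold changes are on the log2(FPKM + 0.1) scale and understate changes of low transcripts. The fit was tested on simulated data: of 100 transcripts changed by 1 on the log2 scale between the siRNAs, 68% were recovered among 14312, and of 100 changed by 2, 81%. There were 5 false calls. Each simulated transcript had exactly the variance that the trend gave it, without further spread between transcripts. The rates may therefore overstate recovery in the real data.

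Named were the 10 members, Klf5 and Myog, from each other list the most abundant gene, and over all lists the 3 largest called differences on day 3 in each direction. Other list genes were named after their values were seen. Members and lists were chosen with earlier results of these data known. Sequences are from GENCODE and the mm9 genome. Other pseudocounts, filters, scalings, fits without each day, without the trend or without the day term, and other thresholds were tried. Python 3.11.15, numpy 2.4.6, pandas 2.3.3 and scipy 1.17.1 were used.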

Additional observations from a re-analysis of the deposited data

Results flagged for a closer look

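Bcl2 was the 1 member whose 3 later days all lay below day 0 with one siRNA (siCtrl) and all above it with the other (siKlf5). The share of all expressed transcripts with such opposite courses was not computed, so this count has no background. The difference of its slopes over the days, siKlf5 minus siCtrl, was 0.46 per day on the log2 scale (SE 0.21, slopes -0.26 and 0.19), with an unadjusted p of 0.0589 and an adjusted p of 1.00 in limma over the 8 libraries, and so did not pass the test. The values rest on 72 to 185 reads per library. Of the 2518 bases of the counted span, 1970 lie in the first GENCODE exon of the gene.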

How the results depend on the processing

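The fit pairs siKlf5 with siCtrl by day, and a block by replicate number was not possible because each siRNA and day has 1 library. For the siRNA averaged over the days, no member was called under any of the alternatives or in the test of slopes. Members called on day 1 went from 2 to 1 without a filter on low values, under upper-quartile and median-ratio scaling, with the deposited log2 columns and without the intensity trend, and to 1 without day 2 or day 3. On day 2 they went from 3 to 1 without a filter and to 5 at a threshold of 0.1. On day 3 they went from 4 to 2 without a filter or without the trend, and were between 2 and 4 with a day left out. All transcripts called for the siRNA went from 9 to 0 with any day left out, without a filter or without the trend, to 1 without the day term, to 20 at a threshold of 0.1 and to 23 with the log2 columns. For days 1, 2 and 3 they went from 2397, 3307 and 4347 to 653, 1206 and 2161 without a filter and to 667, 1374 and 2593 without the trend, and further to 1001 (day 1, without day 2), 1176 (day 1, without day 3) and 2008 (day 2, without day 3). Members past 1.5-fold between the siRNAs on day 1 went from 2 to 1 with a pseudocount of 0.5 or 1 and under both scalings, the one lost being Bcl2. At 2-fold they were 0 on day 1, 0 on day 2 and 1 on day 3. All transcripts past 1.5-fold, 2914, 3917, 2957 and 3328 on days 0 to 3, came to 5018, 5254 and 5422 on days 0, 2 and 3 without a filter, to 1744, 1689 and 2061 on these days with a mean of at least 5, and to 858, 1672, 875 and 1111 on the 4 days with a mean of at least 20, a filter added after seeing the data. Past 2-fold they were 1761, 2224, 1666 and 1962. Counting intervals on single reads left out 0 for 7, 7, 4 and 9 members on days 0 to 3, against 2, 3, 2 and 3 with reads divided by 6. The share of all expressed transcripts whose interval left out 0 was not computed, so these counts have no background. Signs turned only for uncalled differences: Bak1 for the siRNA (0.13 with the log2 columns, and from -0.068 to 0.13 with a day left out), Bcl2l1 on day 1 (0.093 under upper-quartile and 0.065 under median-ratio scaling), Bcl2l11 on day 1 (-0.062 with the log2 columns) and Bcl2 on day 3 (0.086 under upper-quartile and 0.091 under median-ratio scaling). For Bak1 the siKlf5 library was below siCtrl on day 1 only (log2 ratio -0.45), and the log2 columns used hold no siKlf5 library of day 1. What turned the other signs was not tested. Depth limits Bcl2 and Bbc3 most, with as few as 72 and 142 reads in a library.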

Other observations

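Some genes of the wider death pathway differed between the siRNAs on each day, without an adjusted p under 0.05. Bnip3, a mitochondrial protein with a BH3-like stretch that serves in mitophagy, had 433.5, 498.8, 284.2 and 359.4 FPKM in siCtrl cells on days 0 to 3 and 275.1, 190.5, 246.0 and 255.2 FPKM in siKlf5 cells. It was lower in siKlf5 on 4 of 4 days, with a log2 difference of -0.69 (95% interval -1.08 to -0.29, unadjusted p = 0.00377 and adjusted p = 0.290 in limma). Cdkn1a was lower in siKlf5 on days 0, 1 and 3 and higher on day 2 (2037 against 1944 FPKM), with a log2 difference of -0.34 (adjusted p = 0.451). Eda2r was lower in siKlf5 on 4 of 4 days (log2 difference -0.41, adjusted p = 0.349), the day 0 values being 50.4 and 51.0 FPKM. Trp63 was lower on days 0, 2 and 3 (log2 difference -1.25, adjusted p = 0.400), and its day 3 level was 166.5 FPKM in siCtrl and 69.6 FPKM in siKlf5 cells.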
